A study of Mus musculus with 20 samples.

Results

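Open chromatin was followed at 8 genes of the TEAD and YAP pathway: Tead1, Tead2, Tead3, Tead4, Yap1, Wwtr1, Amotl2 and Ankrd1. A region belonged to one of these genes when it held an ATAC-seq peak in any of the 20 libraries and lay within 20 kb of the gene span in the mouse build mm10. Overlapping peaks of all libraries were joined into regions, and 262 of 335858 regions met the rule. The start cells were mouse embryonic fibroblasts (MEFs) from embryos that carry OG2, a transgene in which the Oct4 promoter drives GFP, and all reprogrammed cells came from such MEFs. MEFs received retroviruses for Oct4 together with Nanog (Nanog+Oct4), or for Oct4 together with NanogN70 (NanogN70+Oct4). NanogN70 is NANOG joined to the domain of SS18 that contacts BRG1, the ATPase of the BAF chromatin remodeling complex. Each path had 8 libraries, taken at the end of infection (day 0), on days 1, 3, 5 and 7, and then on days 8, 10 and 12, with 1 library per day and path. The medium changed after 7 days from iCD3 to N2B27 with 2iL, in which the 3 libraries of embryonic stem cells (ESCs), also carrying OG2, were grown. MEFs without virus had 1 library.

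TEAD proteins bind DNA but activate genes poorly alone. YAP (from Yap1) and TAZ (from Wwtr1) are their coactivators, and the kinases of the Hippo pathway hold both in the cytoplasm by phosphorylation. In flat, spread fibroblasts YAP and TAZ sit largely in the nucleus, and TEAD sites with AP-1 sites mark many fibroblast enhancers. TEAD4 is also required for the trophectoderm lineage of the preimplantation embryo. AMOTL2, an angiomotin, binds YAP and holds it at junctions, and the genes for AMOTL2 and ANKRD1, a muscle ankyrin repeat protein, are common readouts of YAP activity.

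Peak numbers ran from 44126 to 107038 over the 16 time course libraries, were 125467 in MEFs and ran from 97450 to 116006 in ESCs. The libraries of days 10 and 12 had 44126 to 54272 peaks, below the 65872 to 107038 of days 0 and 1. The titles name 3 libraries as ESCs while another label field of the same libraries says MEF; they were grouped by title. Promoters of 10 fibroblast markers held peaks for all 10 in MEFs and for 7 in each ESC library, those of 10 pluripotency markers for 7 in MEFs and for 10, 9 and 10 in ESCs, and those of 6 trophoblast markers for 5 in MEFs and for 5 in each ESC library. One library differed from the rest, that of NanogN70+Oct4 on day 3. Open regions found nowhere else made up 23.3% of its total, where the other 15 ranged from 1.45% to 14.3%, and all 10 leukocyte marker promoters held a peak, where the other 15 had 2 to 4. Its part in the results was not tested, and values without day 3 are given where they alter a call.

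Sequence around the summit of the strongest peak is shown for 7 of the regions described, from RefSeq's GRCm38.p6 assembly, on the plus strand and outside annotated UTRs. They were chosen as regions of the MEF-only or ESC-only pattern, or as regions closed or opened late. Capitals mark matches, on either strand, to GGAATG (TEAD), TGANTCA (AP-1), ATGCNAAT (OCT), AACAANG (SOX) or GGGNGTGG (KLF). The summit of the Ankrd1 promoter peak lies in a UTR and is not shown. The Yap1 window at an internal start site and the Tead1 window upstream of the gene are from MEF regions that hold the TEAD letters within 25 bp of the summit, and the Wwtr1 window is the highest-scoring MEF-only region of that gene, with the AP-1 letters.
Wwtr1 intron chr3:57487486-57487636: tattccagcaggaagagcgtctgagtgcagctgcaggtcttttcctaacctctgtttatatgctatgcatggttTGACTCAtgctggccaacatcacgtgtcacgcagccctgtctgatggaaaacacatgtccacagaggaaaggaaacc
Yap1 internal start chr9:7967463-7967613: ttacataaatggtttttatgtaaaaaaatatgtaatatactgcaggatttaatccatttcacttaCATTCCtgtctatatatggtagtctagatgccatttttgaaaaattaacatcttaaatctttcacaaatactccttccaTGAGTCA
Tead1 upstream chr7:112663382-112663532: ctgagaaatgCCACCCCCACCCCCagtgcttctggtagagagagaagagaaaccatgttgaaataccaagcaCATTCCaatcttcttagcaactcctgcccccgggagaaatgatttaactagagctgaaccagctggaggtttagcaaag
Tead1 time course region chr7:112732769-112732919: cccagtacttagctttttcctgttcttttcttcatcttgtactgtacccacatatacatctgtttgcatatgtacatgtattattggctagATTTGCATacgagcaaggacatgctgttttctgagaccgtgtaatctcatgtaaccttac
Tead1 internal start in ESCs chr7:112691500-112691650: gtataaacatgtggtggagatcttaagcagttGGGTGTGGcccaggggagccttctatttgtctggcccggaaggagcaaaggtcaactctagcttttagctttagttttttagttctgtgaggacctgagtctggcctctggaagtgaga
Tead1 region opened late chr7:112841986-112842136: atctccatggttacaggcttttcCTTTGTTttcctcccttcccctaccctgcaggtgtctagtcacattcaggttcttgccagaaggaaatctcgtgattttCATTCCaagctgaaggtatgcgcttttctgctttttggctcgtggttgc
Amotl2 upstream region in ESCs chr9:102715083-102715233: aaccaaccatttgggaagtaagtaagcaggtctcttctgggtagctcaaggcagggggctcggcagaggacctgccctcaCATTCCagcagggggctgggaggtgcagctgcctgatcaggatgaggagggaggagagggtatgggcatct

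The 262 regions were spread unevenly, with 89 at Tead1, 12 at Tead2, 15 at Tead3, 29 at Tead4, 39 at Yap1, 41 at Wwtr1, 18 at Amotl2 and 19 at Ankrd1. Of these, 29 lay within 2 kb of an annotated start site of the gene and 233 lay farther away. Among the distal regions, 14 (6 at Tead2 and 8 at Tead3) lay within 2 kb of a start site of another coding gene, such as Fance, Rpl10a, Cd37 and Tulp1, and cannot be assigned to the TEAD gene alone. Only 14 regions held a peak in all 20 libraries, of which 7 were promoters, and 106 held a peak in a single library.

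Between days 0 and 1 and days 10 and 12, the number of open regions went down without overlap at the 2 coactivator genes and at the target gene Ankrd1, and overlapped at the other 5 members. A gene was counted as having fewer open regions late when all 4 late values (2 days, both paths) lay below all 4 early ones. Of 20177 coding genes, 13.8% met that rule and 1.33% met its reverse. The median coding gene had 3.5 open regions on days 0 and 1. Yap1 had a mean of 10.5, Wwtr1 of 12.0 and Ankrd1 of 5.0, so members and background are not like for like. With equal numbers of top-scoring peaks per library these shares were 5.41% and 7.83%, so the direction of the background depends on the number of peaks. For a single gene the two-sided exact permutation test of 4 against 4 libraries cannot go below p = 0.0286, and none of the coding genes had a Benjamini-Hochberg adjusted p under 0.05 (the smallest was 0.189).

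Yap1 held 14 open regions in MEFs and 10, 12 and 12 in ESCs. With Nanog+Oct4 it held 9, 8, 7, 13, 6, 6, 5 and 3 open regions over the 8 days, and with NanogN70+Oct4 it held 17, 8, 7, 8, 6, 5, 2 and 6. All 4 early values, 8 to 17, lay above all 4 late values, 2 to 6, and the mean went from 10.5 ± 4.36 to 4.0 ± 1.83 (SD, n = 4; exact permutation p = 0.0286, adjusted 0.189). With all peaks, the late values lay below MEFs and below every ESC library. In such bulk samples, fewer cells with an open site and a site less open in each cell cannot be told apart. When each library was limited to its 44126 highest-scoring peaks, the early mean was 7.5 and the late mean 3.0, and the groups still did not overlap. The late values, 2 to 4, were then level with the 4 of MEFs and the 3 of each ESC library.

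Wwtr1 held 18 open regions in MEFs and 9, 10 and 9 in ESCs. It held 11, 8, 7, 9, 13, 7, 7 and 5 with Nanog+Oct4 and 19, 10, 4, 6, 5, 4, 4 and 5 with NanogN70+Oct4. The mean went from 12.0 ± 4.83 on days 0 and 1 to 5.25 ± 1.26 on days 10 and 12 (SD, n = 4; exact permutation p = 0.0286, adjusted 0.189). With equal numbers of peaks the means were 6.0 and 4.75 and the groups overlapped, so this call depends on the number of peaks per library.

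Ankrd1 held 5 open regions in MEFs and 4, 3 and 2 in ESCs. It held 3, 5, 3, 5, 3, 3, 1 and 1 with Nanog+Oct4 and 7, 5, 2, 5, 5, 3, 0 and 1 with NanogN70+Oct4. The mean went from 5.0 ± 1.63 to 0.75 ± 0.5 (SD, n = 4; exact permutation p = 0.0286, adjusted 0.189). By days 10 and 12 the locus was nearly without peaks in both paths, and with equal numbers of peaks the means were 2.5 and 0.5 without overlap. With a 5 kb window, or with peaks of a score of at least 100 (the score is −10 log10 of the peak caller's p), the groups of Wwtr1 and of Ankrd1 overlapped, and only Yap1 kept its call.

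At the TEAD genes the early and late numbers of open regions overlapped. Tead1 averaged 19.75 ± 3.4 regions early and 18.5 ± 4.65 late (SD, n = 4; exact permutation p = 0.686), Tead4 6.75 ± 2.36 and 8.0 ± 2.16 (p = 0.514), and Tead3 4.75 ± 0.5 and 5.0 ± 0.0 (p = 1.0). Tead2 averaged 4.0 ± 0.816 early and 5.25 ± 0.5 late (exact permutation p = 0.114), and with equal numbers of peaks its means were 3.25 and 5.25 and did not overlap. With all peaks, ESCs held more open regions than any time course library at Tead1 (28, 32 and 26), Tead2 (9, 9 and 10), Tead3 (12, 12 and 10) and Tead4 (17, 18 and 15). With equal numbers of peaks that order held only at Tead4, with 10, 11 and 11 in ESCs against 3 to 9 in the time course. Tead2 and Tead3 then overlapped, and Tead1 held 11, 11 and 8 in ESCs against up to 20 in the time course. Amotl2 had 10 open regions in MEFs, 6, 5 and 4 in ESCs, and 2 or 3 in each time course library, but with equal numbers of peaks 2 in MEFs, 3 in each ESC library and 1 to 3 in the time course.

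**Figure D1:**
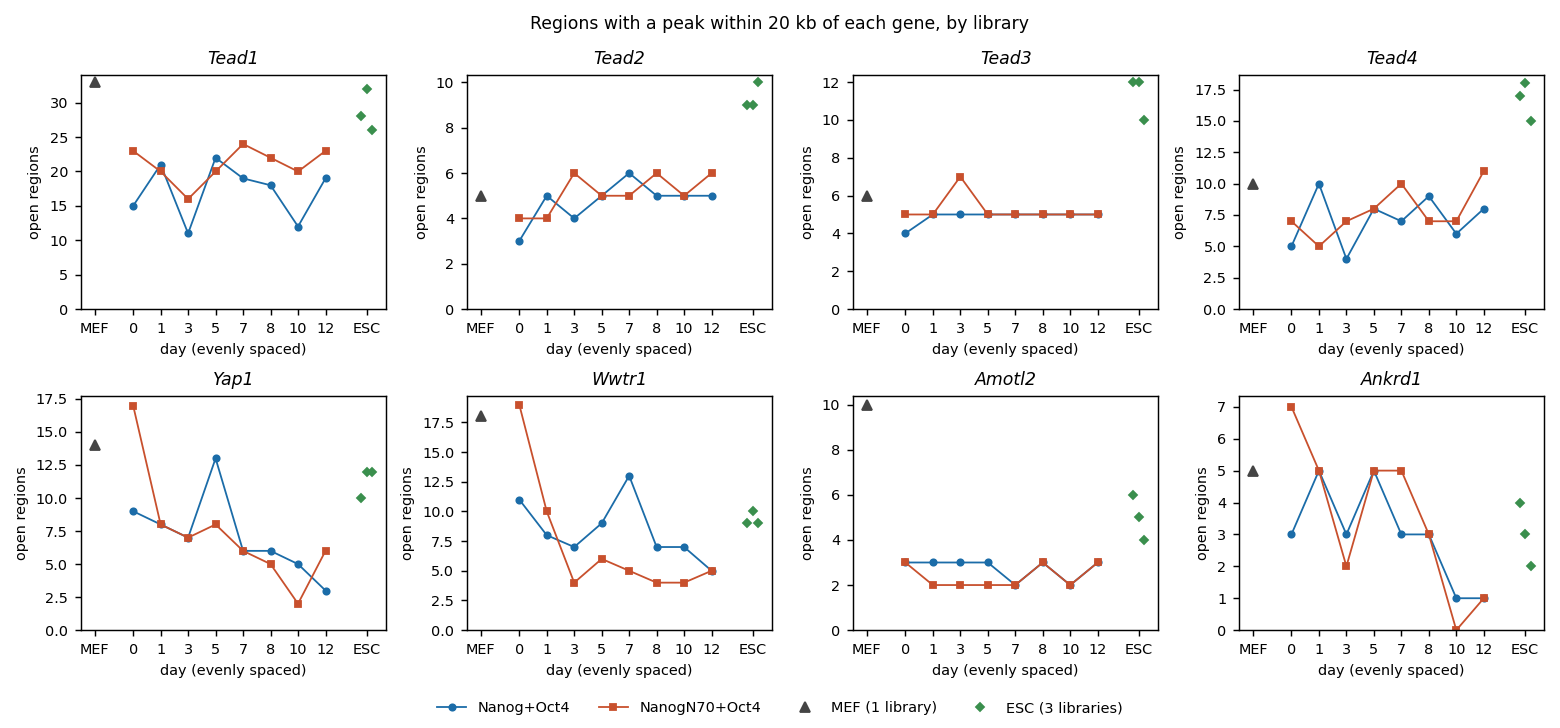
Number of regions with a peak within 20 kb of each gene (vertical axis, starting at 0) in MEFs, on each day of both paths and in the 3 ESC libraries; each point is 1 library. Yap1, Wwtr1 and Ankrd1 end at 2 to 6, 4 to 7 and 0 to 1 regions on days 10 and 12, while Tead1 stays between 11 and 24 in the time course libraries.

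Only a few single regions changed in every early and late library. Regions closed, open in all 4 early and none of the 4 late libraries, numbered 5 of 262 (1.91%), against 1.86% of all regions. Regions opened in the reverse sense numbered 3 of 262 (1.15%), against 0.615% of all regions. These counts rest on few libraries: 10 were closed without NanogN70 day 1, 8 without Nanog day 1 and 1 with equal numbers of peaks, and 7 were opened without Nanog day 10. Those closed were 2 introns of Wwtr1, 2 introns of Tead1 and 1 intron of Yap1. Of these 5, the 2 at Wwtr1 were open in MEFs, with summit pileups (overlapping tags at the highest point) of 13 and 6, and the other 3 were closed in both MEFs and ESCs. The region chr3:57504719-57505139, 71.0 kb into Wwtr1, had pileups of 5 and 6 on days 0 and 1 with Nanog+Oct4 and of 15 and 5 with NanogN70+Oct4, and no peak on any later day. The region chr7:112855727-112856032, 177 kb into Tead1, showed the same course with pileups of 9, 8, 16 and 8, although MEFs had no peak there.

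The 3 regions opened were 2 in Tead1 and 1 downstream of Tead2 that lies at promoters of Cd37 and Slc6a16. The region chr7:112841887-112842358, at a coding exon 163 kb into Tead1, was the highest-scoring ESC region of the gene, with pileups of 73, 76 and 51 in ESCs and 15 in MEFs. No peak was found there on days 0, 1 and 3 in either path. With Nanog+Oct4 it had pileups of 8 on day 5, 6 on day 8, 5 on day 10 and 9 on day 12, and with NanogN70+Oct4 of 7, 9, 10 and 27 on days 7, 8, 10 and 12. Set against the median pileup of the same library at the 14217 regions open in all 20 libraries, the day 12 values were 0.375 and 0.659, and the ESC values were 2.28, 2.0 and 1.76, so every time course library lay below ESCs. The other, chr7:112760629-112761090, lies within 2 kb of an internal start site 81.5 kb into Tead1 and was MEF-only: its pileup was 13 in MEFs, it had no peak on days 0 and 1, and it reached 23 on day 8 with Nanog+Oct4 and 16 on day 12 with NanogN70+Oct4.

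The main promoters stayed open, and were compared by the size of their peaks. Tead1, Tead2, Tead3, Tead4, Yap1, Wwtr1 and Amotl2 each had a promoter region with a peak in all 20 libraries, and Ankrd1 had none. Pileup was divided by the library median at the regions open in all 20 libraries (relative pileup), since pileups are not scaled to depth and the number of reads is unknown. Among 14918 regions with a peak in all 16 time course libraries, 9.38% had a higher and 12.4% a lower log2 relative pileup late at an unadjusted exact permutation p under 0.05, and the median change was -0.05. No adjusted p was under 0.05, and the smallest was 0.131.

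The Tead4 promoter had the largest difference of the 7. Its relative pileup was 1.69 in MEFs and 1.09, 1.08 and 1.1 in ESCs. With Nanog+Oct4 it went from 1.75 on day 0 to 1.06, 0.652, 0.714, 0.763, 0.531, 0.609 and 0.458 on day 12, and with NanogN70+Oct4 from 1.71 to 0.688, 0.267, 0.478, 0.5, 0.385, 0.214 and 0.463. Early and late values did not overlap, and the log2 difference was -1.58, from 0.28 ± 0.64 to -1.29 ± 0.65 (SD, n = 4; exact permutation p = 0.0286, adjusted 0.131). Every library from day 3 on lay below both MEFs and all 3 ESC libraries. An intron region 14.9 kb into Tead4, chr6:128285648-128286184, picked after its values were seen and also open in all 20 libraries, had a log2 difference of -1.55 (exact permutation p = 0.0286, adjusted 0.131). When pileup was divided by the median of all summits of the library instead, the Tead4 promoter difference was -1.30 and the groups overlapped.

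The Wwtr1 promoter had the largest relative pileup of the 7 in ESCs, 2.0, 2.39 and 2.14, and 2.33 in MEFs. It was 1.75 to 2.21 on days 0 and 1 and 1.29 to 1.52 on days 10 and 12, a log2 difference of -0.49 (exact permutation p = 0.0286, adjusted 0.131), which overlapped when scaled to all summits (-0.22). The Tead2 promoter was higher late, from 0.688 to 0.812 early to 0.929 to 1.25 late, a log2 difference of 0.49 (exact permutation p = 0.0286, adjusted 0.131), and lay above the 0.448 to 0.531 of ESCs. The Yap1 promoter had a log2 difference of 0.63 (exact permutation p = 0.0857) with early values of 0.688 to 0.75 and late values of 0.708 to 1.52, which overlapped through the Nanog day 12 library. Without that library the difference was 0.84 and the groups did not overlap. Thus the number of open regions at Yap1 went down while its promoter peak was no lower. The Tead1, Tead3 and Amotl2 promoters differed by 0.20, -0.11 and -0.33, with exact permutation p values of 0.143, 0.571 and 0.286.

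**Figure D2:**
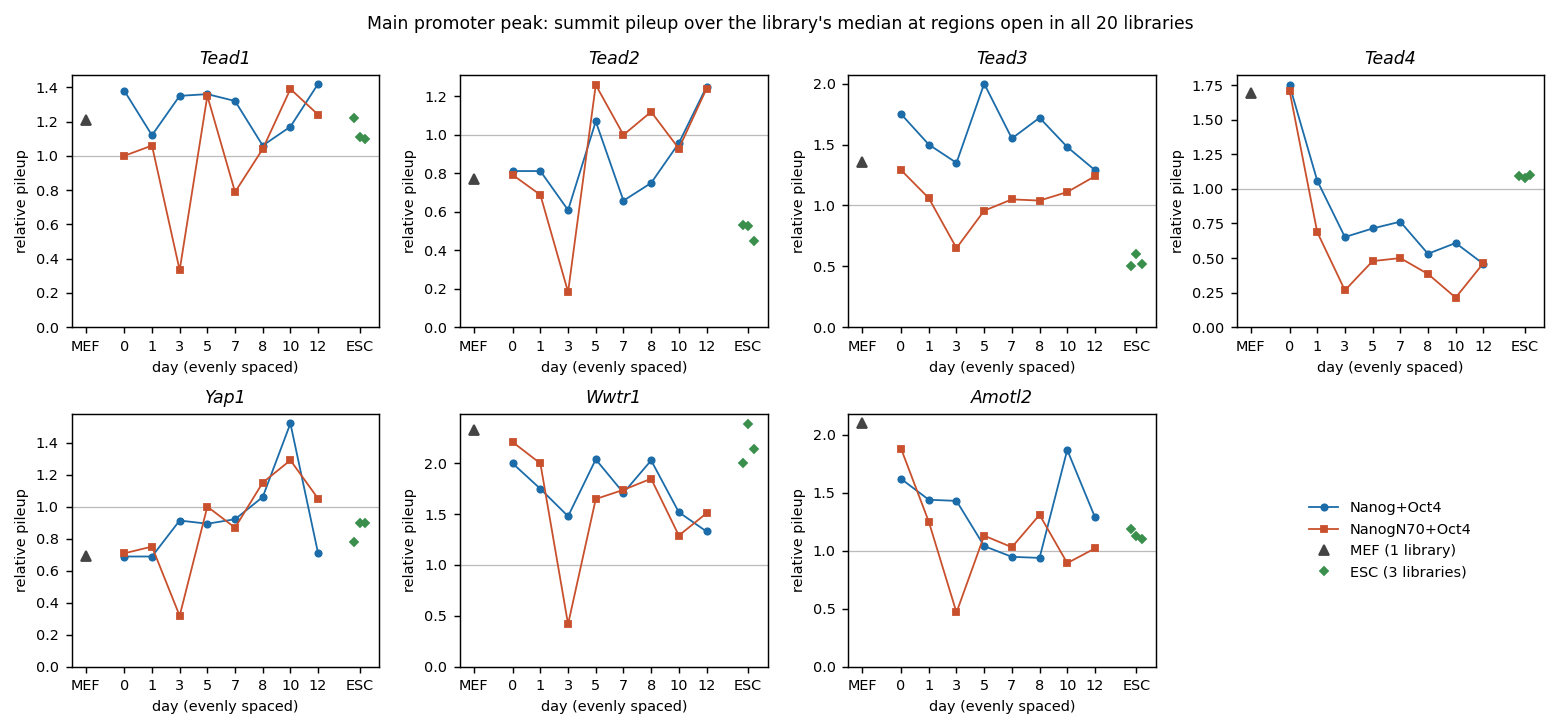
Relative pileup (summit pileup over the library median at regions open in all 20 libraries; grey line at 1) of the main promoter of 7 genes in MEFs, over 8 days of both paths and in ESCs; each point is 1 library. The Tead4 promoter goes from 1.75 and 1.71 on day 0 to 0.458 and 0.463 on day 12, and the NanogN70 day 3 library is low at every promoter, from 0.183 to 0.65.

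The Ankrd1 promoter separated cell types more sharply. The region chr19:36119663-36120349 at the start of the gene had a pileup of 37 in MEFs and no peak in any ESC library. With Nanog+Oct4 it had pileups of 13, 5, 9, 7, 7, 9 and 6 on 7 days and no peak on day 7, and with NanogN70+Oct4 of 17 and 7 on days 0 and 1 and no peak from day 3 on. It was thus open on 7 days in one path and on 2 in the other (exact sign-flip permutation test over 8 days, p = 0.0625, adjusted 1.0), the smallest p for a region that differs on 5 days. Its pileups are not scaled to depth, and the library median at regions open in all 20 libraries was 39 in MEFs and 16 on Nanog day 0. A region at -17.7 kb, upstream of the start, chr19:36137615-36137945, was closed in MEFs and ESCs but had pileups of 6 to 9 on days 1 to 8 with Nanog+Oct4 and of 4 to 18 on days 0 to 8 with NanogN70+Oct4, and none on days 10 and 12. The highest-scoring region of the gene, at -9.2 kb with a pileup of 47 in MEFs and 7 in 1 ESC library, likewise had no peak on days 10 and 12 in both paths. These 2 upstream regions were picked after their values were seen.

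The regions were next divided by the end points of the study. MEF-only regions, which had a peak in MEFs and none in ESCs, numbered 55 of 262 (21%), against 22.2% of all regions. ESC-only regions, open in at least 2 ESC libraries and closed in MEFs, numbered 44 (16.8%), against 16.5%. Regions open in MEFs and all 3 ESC libraries numbered 39 (14.9%), against 9.34%. Of these 39, 9 were promoters, and member regions all lie within 20 kb of a gene. The 9.34% covers regions at any distance from genes, so the 2 shares are not like for like. A further 10 (3.82%) were closed in MEFs and in all ESC libraries and open in at least 4 of the 16 time course libraries, against 6.65%; this class was defined after the data were seen. The first pair of shares was close to the background and is no result about these loci.

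The makeup of these classes differed among the members. MEF-only regions numbered 18 of 89 at Tead1, 8 of 39 at Yap1, 13 of 41 at Wwtr1, 8 of 18 at Amotl2 and 4 of 19 at Ankrd1, but 1 of 12 at Tead2, 3 of 29 at Tead4 and 0 of 15 at Tead3. ESC-only regions numbered 14 at Tead1, 5 at Tead2, 6 at Tead3 and 8 at Tead4, and 2 at Yap1, 4 at Wwtr1, 3 at Amotl2 and 2 at Ankrd1. None of the 11 ESC-only regions of the last 4 genes held a peak in any of the 16 time course libraries, whereas 18 of the 33 at TEAD genes did in at least 1. These 18 include regions counted for Tead2 that lie at promoters of Cd37 and Slc6a16 and cannot be assigned to Tead2 alone. Over all regions, 66.1% of the ESC-only class held no peak in any time course library. Without the NanogN70 day 3 library the count at TEAD genes was 16 of 33, with none at Tead3, and the share over all regions was 69.4%. This division of the members was made after the values were seen and was not tested.

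Some of the 11 that stayed without a peak were strong in ESCs, but as a set they were weaker than those at TEAD genes. The median of the highest score in any library was 118 for the 11 and 196 for the 33 at TEAD genes. The region chr3:57583460-57583944, at -7.79 kb, upstream of Wwtr1, had pileups of 23, 26 and 24 in ESCs. The region chr9:102714865-102715674, within 2 kb of the Amotl2 start site and holding the TEAD letters shown above, had pileups of 34, 37 and 25. At Yap1 the strongest, an intron region 46.4 kb from the 5′ end, was weak in ESCs, with pileups of 9, 8 and 6. At Ankrd1 the strongest lay at -4.26 kb, upstream of the gene, with 7, 11 and 9.

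At Yap1 and Amotl2 the internal regions took different courses. The Yap1 region chr9:7967062-7967685, within 2 kb of an internal start site and printed above, had a pileup of 15 in MEFs, no peak in ESCs, 12 on day 0 with Nanog+Oct4, and 21 and 5 on days 0 and 1 with NanogN70+Oct4. No library of a later day held a peak there. The closed intron region of Yap1, chr9:7959861-7960314, was absent from MEFs and ESCs and had pileups of 8 and 10 on days 0 and 1 with Nanog+Oct4 and of 8 and 7 with NanogN70+Oct4, and it had a further peak of 10 on Nanog day 5. The Yap1 coding exon region chr9:7952973-7953641, MEF-only with a pileup of 7 in MEFs, was higher in the first NanogN70 library, at 26, and was open on 5 days with Nanog+Oct4 and on 4 with NanogN70+Oct4. The Amotl2 intron region chr9:102725579-102726716, near an internal start site, had a pileup of 49 in MEFs and 37, 49 and 32 in ESCs and was open on 8 days with Nanog+Oct4 and on 7 with NanogN70+Oct4, at 6 to 26.

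Several internal regions of the TEAD genes had a peak on more late days with NanogN70+Oct4. The Tead1 region chr7:112743440-112744078, 64.4 kb into the gene, had pileups of 22 in MEFs and 22, 35 and 23 in ESCs but no peak on days 0, 1 and 3 in either path. It returned with NanogN70+Oct4 on days 5, 7, 8, 10 and 12, at 4, 17, 8, 10 and 14, and with Nanog+Oct4 on days 8 and 12, at 5 and 8 (exact sign-flip p = 0.25). The ESC-only region 172 kb into Tead1, chr7:112850981-112851825, had pileups of 10 and 11 in 2 ESC libraries and of 8, 11, 10, 11 and 34 on days 5 to 12 with NanogN70+Oct4, against 9 on day 7 and 7 on day 12 with Nanog+Oct4. On day 12 with NanogN70 its pileup was thus above that of ESCs. The Tead2 region chr7:45229489-45229898, 13.9 kb into the gene, had 18, 23 and 17 in ESCs and a single time course peak, of 14 on NanogN70 day 12. The strongest ESC-only region of Tead3, at a coding exon 18.4 kb into the gene, had 17, 25 and 21 in ESCs and no peak in MEFs or the time course.

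MEF-only member regions had 19 of 55 open on day 0 and 9 on day 12 with Nanog+Oct4, and 22 and 6 with NanogN70+Oct4. On day 12 the shares were 16.4% and 10.9%, against 6.52% and 4.17% of all MEF-only regions, while on day 0 the shares of all MEF-only regions were 31.2% and 36.5%. Over the 8 days the mean share open was 21.4% and 15.7%, against 16.4% and 12.2% over all MEF-only regions. ESC-only member regions had 0 of 44 open on day 0 in both paths, and on day 12 had 4 (9.09%) with Nanog+Oct4 and 10 (22.7%) with NanogN70+Oct4, against 5.87% and 14.2% of all ESC-only regions, with means of 5.4% and 11.4% against 5.1% and 9.55% over all ESC-only regions. Of the 44, 7 (15.9%) were open on at least 1 day with Nanog+Oct4 and 17 (38.6%) with NanogN70+Oct4, against 17.3% and 30.8% of all ESC-only regions. Those open in the NanogN70 path alone numbered 11 of 44, against 16.6% of all ESC-only regions. Without the NanogN70 day 3 library, left out here after the data were seen, 14 were open with NanogN70+Oct4 and 9 in that path alone, against 26.9% and 13.3% of all ESC-only regions. For both classes the higher mean was in the same path as over all regions.

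**Figure D3:**
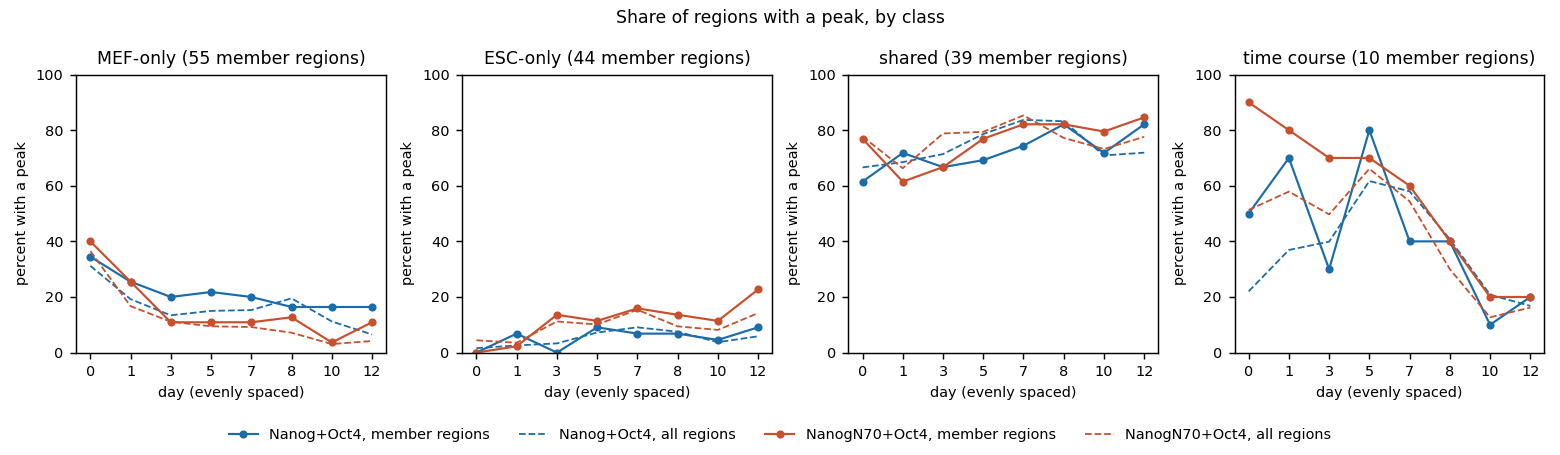
Percent of regions with a peak on each day (horizontal axis, evenly spaced) for 4 classes, in the Nanog+Oct4 (blue) and NanogN70+Oct4 (red) paths; solid lines with points are member regions and dashed lines all regions of the class. The ESC-only member share reaches 22.7% on day 12 with NanogN70 and 9.09% with Nanog, and the time course class falls to 2 of 10 regions in both.

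The paths were compared day by day. Over all members the NanogN70 path had 4.375 ± 13.1 more open regions per day (SD over 8 days), more on 5 days and fewer on 3, a mean well inside the spread between days. The largest difference was on day 0, with 85 open regions in the NanogN70 library and 53 in the Nanog library. Without day 0 the mean difference was 0.429. No member region separated the paths at an unadjusted exact sign-flip p under 0.05, of 174 open in at least 1 time course library, against 0.288% of all such regions open on more days with NanogN70 and 0.35% with Nanog. At the level of genes, 5.57% of coding genes had more open regions with NanogN70 and 0.692% with Nanog at the same threshold, and no adjusted p was under 0.05 (the smallest was 0.578).

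Tead1 alone among the members passed the unadjusted threshold. It held 15, 21, 11, 22, 19, 18, 12 and 19 open regions over the 8 days with Nanog+Oct4 and 23, 20, 16, 20, 24, 22, 20 and 23 with NanogN70+Oct4, higher with NanogN70 on 6 of 8 days by 3.875 ± 3.68 regions (SD; exact sign-flip p = 0.0312, adjusted 0.578). The call was lost without day 3, where the difference was 3.714, without any of days 0, 7, 8, 10 and 12, and with equal numbers of peaks, when it was 3.5 with an exact sign-flip p of 0.0547. The other 7 genes had exact sign-flip p values of 0.25 to 1.0, and their mean daily differences ran from -1.25 at Wwtr1 to 0.625 at Tead4.

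Single Tead1 regions differed in both directions, none with an exact p under 0.05 in the main count. The ESC-only region chr7:112690426-112691906, at an internal start site 11.8 kb into the gene, had pileups of 58, 62 and 56 in ESCs and no peak in MEFs. With NanogN70+Oct4 it opened on day 7 and stayed open, with pileups of 8, 8, 8 and 20 on days 7, 8, 10 and 12, and with Nanog+Oct4 it held no peak on any day (exact sign-flip p = 0.125, adjusted 1.0). On day 12 its relative pileup was 0.488, against 1.81, 1.63 and 1.93 in ESCs. Its neighbor 9.27 kb into the gene, not covered by the naming rule, with 31, 31 and 26 in ESCs, held a single time course peak, of 11 on NanogN70 day 12.

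Other Tead1 introns were open in the time course alone; those at 74.2 and 146 kb were picked after their values were seen. The region chr7:112753280-112753808, 74.2 kb into the gene, was closed in MEFs and ESCs and had pileups of 22, 9, 7, 11, 21, 13 and 7 on days 0 to 10 with NanogN70+Oct4, against 4 on day 1 and 6 on day 5 with Nanog+Oct4 (exact sign-flip p = 0.0625, adjusted 1.0). Among peaks of a score of at least 100 it had a peak in 6 NanogN70+Oct4 libraries and in 0 of the other path (exact sign-flip p = 0.0312, adjusted 1.0). A region 146 kb in, chr7:112825083-112825819, was closed in MEFs and ESCs and open on 7 days in each path with pileups of 5 to 25. Of the 10 regions of this class, 6 lay at Tead1, 3 at Yap1 and 1 at Ankrd1.

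Some MEF regions of Tead1 had a peak on more days with Nanog+Oct4. The strongest MEF peak of the gene, chr7:112719979-112721048 at 41.2 kb, was chosen for description after its values were seen. It had a pileup of 68 in MEFs and of 9, 8 and 7 in ESCs, and it was open on all 8 days with Nanog+Oct4, with pileups of 8 to 24. With NanogN70+Oct4 it had 31, 10 and 8 on days 0, 1 and 3 and then 6 on day 8 and 7 on day 12. Among peaks of a score of at least 100 it was open on 8 days in one path and on 2 in the other (exact sign-flip p = 0.0312, adjusted 1.0). These pileups are not scaled to depth, and the library median at regions open in all 20 libraries was 39 in MEFs and 16 on Nanog day 0. The MEF-only region at -16.1 kb that holds the TEAD letters, chr7:112662573-112663773, was open on 8 days with Nanog+Oct4 and on 4 with NanogN70+Oct4 (exact sign-flip p = 0.125).

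**Figure D4:**
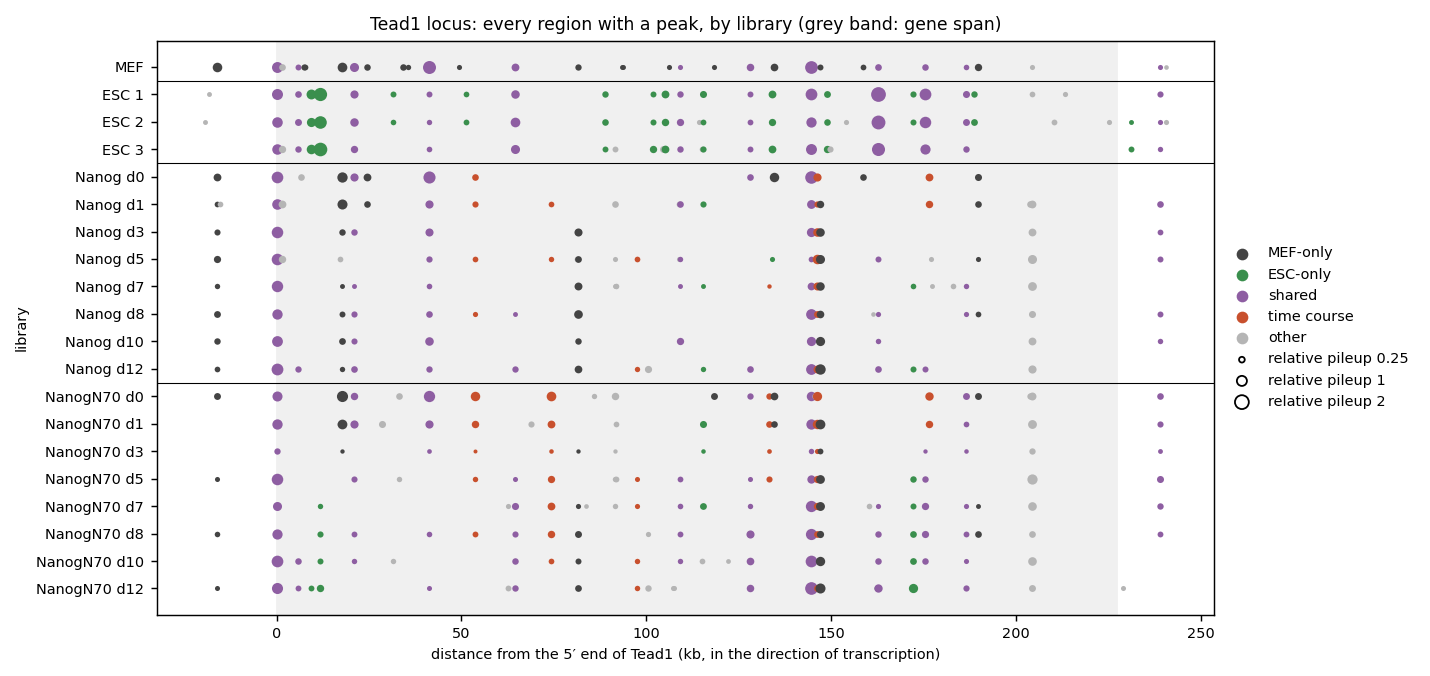
Every region with a peak within 20 kb of Tead1, by distance from the 5′ end of the gene (horizontal axis, kb) and library (rows); the area of each circle grows with relative pileup and the color gives the class. ESC-only regions at 9.27 and 11.8 kb appear in the time course only in NanogN70 libraries, on day 12 and from day 7 on, respectively.

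Single regions of Wwtr1 and Tead4 also differed between the paths in days open. The Wwtr1 region was open on more days with Nanog+Oct4, and the Tead4 regions went in both directions. The MEF-only intron region of Wwtr1 whose sequence holds the AP-1 letters, chr3:57487390-57487784, had a pileup of 53 in MEFs and none in ESCs. With Nanog+Oct4 it was open on all 8 days, at 12, 12, 19, 16, 22, 25, 13 and 6, and with NanogN70+Oct4 it was open on days 0 to 5, at 17, 12, 5 and 8, and had no peak from day 7 on (exact sign-flip p = 0.125, adjusted 1.0). In Tead4 the ESC-only region chr6:128254300-128254990, with pileups of 21, 34 and 26 in ESCs, had 10, 6, 6 and 12 on days 7, 8, 10 and 12 with NanogN70+Oct4 and no peak with Nanog+Oct4 (exact sign-flip p = 0.125). Another ESC-only Tead4 intron region, chr6:128280541-128281110, picked after its values were seen, went the other way, open on 6 days with Nanog+Oct4 and on 2 with NanogN70+Oct4. Each of these 3 regions differed between the paths on 4 days, for which 0.125 is the smallest p the test can give.

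**Figure D5:**
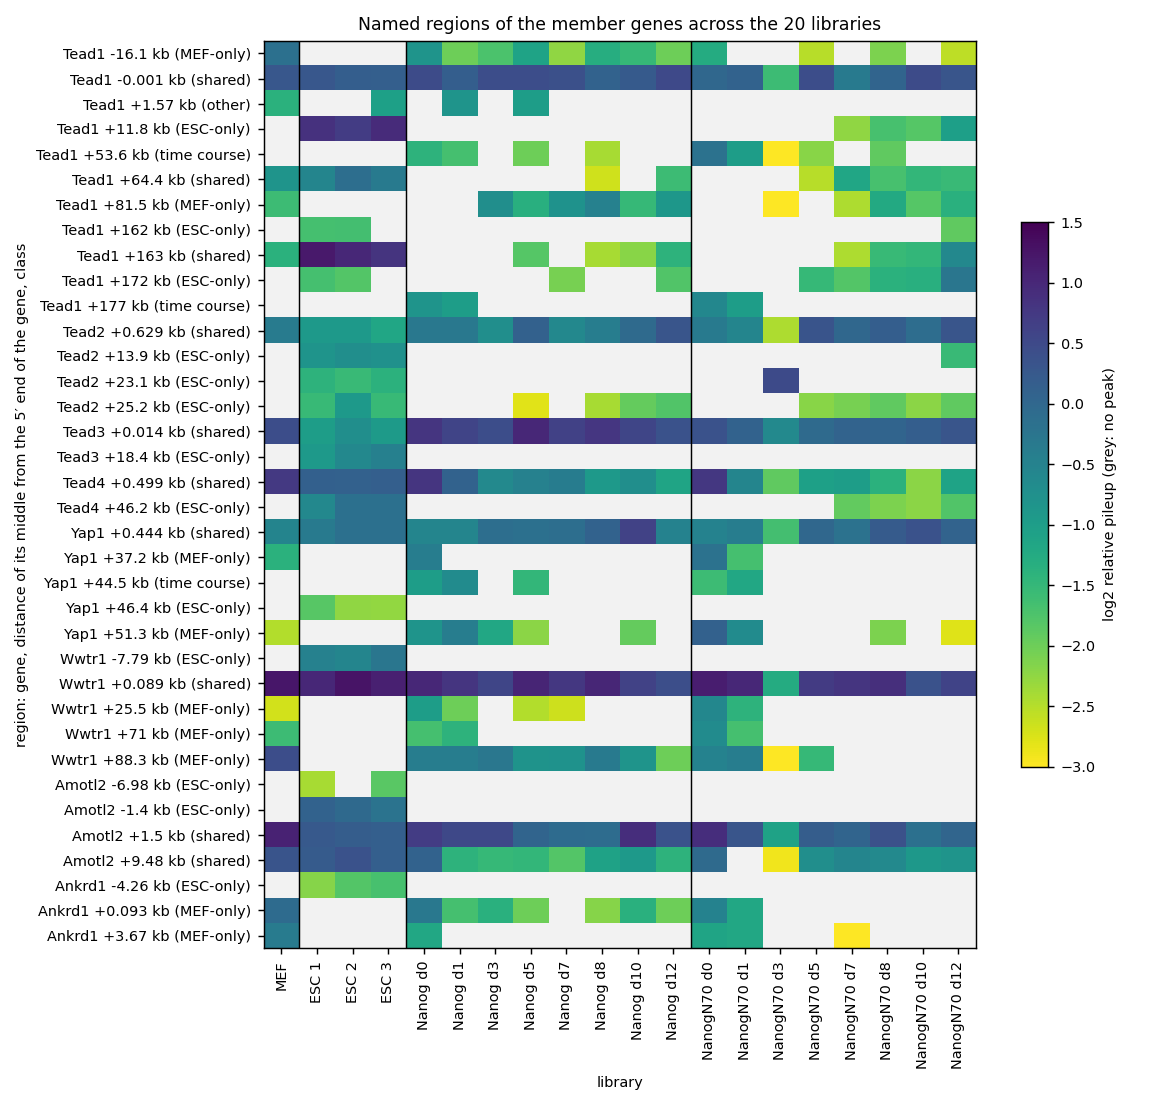
Log2 relative pileup (color; grey where no peak was called) of the named regions with at least 4 open libraries or of the ESC-only class, one row per region with its gene, distance from the 5′ end and class, and one column per library. The Tead1 region at 11.8 kb and the Tead4 region at 46.2 kb are colored in ESCs and in NanogN70 days 7 to 12, and the Wwtr1 region at 88.3 kb in MEFs, all Nanog days and NanogN70 days 0 to 5.

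Promoter peak size also differed, before adjustment, between paths at 2 TEAD genes. Of the regions with a peak in all 16 time course libraries, 6.92% had a higher and 9.49% a lower relative pileup with NanogN70 at an unadjusted exact sign-flip p under 0.05, and the smallest adjusted p was 0.194. The Tead3 promoter was lower with NanogN70 on 8 of 8 days, with relative pileups of 1.29 to 2.0 with Nanog+Oct4 and of 0.65 to 1.29 with NanogN70+Oct4, a log2 difference of -0.60 ± 0.34 (SD; exact sign-flip p = 0.00781, the smallest possible, adjusted 0.194). The Tead4 promoter was lower on 7 of 8 days, by -0.64 ± 0.54 (exact sign-flip p = 0.0156, adjusted 0.208), and by -0.51 and no longer past 0.05 when scaled to all summits. The other 5 promoters had exact sign-flip p values of 0.102 to 0.82. In ESCs the Tead3 promoter was at 0.5, 0.605 and 0.517, below every time course library, and at 1.36 in MEFs.

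Letters of the 5 motifs were counted within 25 bp of the summit of the strongest peak of each region. GGAATG was found in 13 of 262 member regions (4.96%, against 4.48% of all regions), and in 6 of 55 MEF-only member regions (10.9%, against 8.16%) and 1 of 44 ESC-only ones (2.27%, against 3.55%). TGANTCA was found in 10 of 55 MEF-only member regions (18.2%, against 15.7%) and in 0 of 44 ESC-only ones (against 1.6%). ATGCNAAT, AACAANG and GGGNGTGG were found in 2, 7 and 10 of the 262, against 1.19%, 3.12% and 2.63% of all regions. The 1 ESC-only member region with GGAATG was the Amotl2 region printed above, and the 1 time course region with ATGCNAAT was the Tead1 intron region printed above. A match is a description of the letters, and these shares stood near those of all regions.

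Other genes of the pathway were described by lists. Of 12 Hippo kinases and scaffolds, 6 had fewer open regions late and 0 more, with a median difference of -2.62 regions, where 13.8% of all coding genes had fewer and the median was -0.5. The typical coding gene began with 3.5 open regions, fewer than most genes of these lists, so the medians are not like for like. Of 10 fibroblast markers, 5 had fewer and 0 more, with a median of -2.88. Stk3, the MST2 kinase, went from a mean of 8.5 to 3.5 regions and Map4k4, a kinase that acts on LATS, from 13.75 to 7.0, each with an exact permutation p of 0.0286 and adjusted 0.189. Of 10 genes that bind or modulate YAP and TAZ, 2 had fewer and 0 more, Amotl1 (15.5 to 6.0) and Dchs1 (8.5 to 5.25). Of 10 YAP targets, 4 had fewer and 0 more: Ccn1 (5.0 to 3.0), Crim1 (15 to 2.75), Myof (18 to 6.75) and F3 (5.5 to 2.0). Lats2 and Ptpn14 stand in 2 lists each. No gene of the 3 lists passed the path test at an unadjusted p under 0.05.

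Of the promoters open in all 20 libraries, that of Tead4 varied most (SD of 0.849 in log2 relative pileup). Among 11537 coding genes with such a promoter region, Ccn2 (connective tissue growth factor) had the highest Pearson correlation with it across the 20 libraries, r = 0.897, followed by Calhm5 at 0.886 and Gm10767 at 0.883. Without NanogN70 day 3 the values were 0.88, 0.874 and 0.872. The libraries are successive days of 2 paths and share their end points, and these correlations are a description.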

How the data were processed

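ATAC-seq peak lists covered 1 MEF, 3 ESC and 16 time course libraries. The authors trimmed reads with Trim Galore 0.6.4, aligned them to mm10 with Bowtie2 2.4.5, removed reads of mapping quality under 30 with SAMtools 1.16.1, and called peaks in each library separately with MACS 1.4.2, without a model and with a shift of 25 bp. The deposited peak score is −10 log10 of the caller's p-value, at least 50 in every file, and the deposited summit signal is the pileup of tags, not scaled to depth. No source used here states the read totals, and depth is therefore unknown; absence of a peak means not detectable at that depth.

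Overlapping peaks (1 bp or more) of the 20 libraries were joined into regions with Python 3.11.15, numpy 2.4.6 and pandas 2.3.3. Gene spans and start sites came from GENCODE M21. A region was open in a library with a peak there. Early (days 0 and 1) and late (days 10 and 12) libraries were compared by two-sided exact permutation tests (70 splits), paths by exact sign-flip tests over 8 days (256 flips), with Benjamini-Hochberg adjustment over all coding genes or regions. The tests were checked on simulated data. The labels do not say whether days and paths came from separate cultures, so p-values measure only the spread between these libraries. Relative pileup divides by the library median at 14217 regions open in all 20 libraries; no count test was used.

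Named were all promoters (within 2 kb of a start site), regions closed or opened late or separating the paths, and per gene the highest-scoring MEF-only and ESC-only region, up to 4 of a kind; exceptions are stated. For the promoter that varied most, the 3 most correlated genes were named. Members, lists and rules were chosen with earlier results of these data known.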

Additional observations from a re-analysis of the deposited data

Results flagged for a closer look

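Of 60 sets of values examined (8 genes and 7 promoters in 4 early or 4 late libraries, and over 8 days of each path), 15 held a library far from the others by Dixon's test. Its nominal rate of about 1 in 20 does not hold here. Several sets were tied counts, in which a step of 1 region is flagged by construction, and the sets share libraries. The number flagged thus cannot be set against chance. In 5 of the 15 flagged sets the NanogN70 day 3 library was the low value of a promoter's relative pileup: 0.333 at Tead1, 0.183 at Tead2, 0.65 at Tead3, 0.317 at Yap1 and 0.417 at Wwtr1. That library also held the high count of open regions at Tead3, 7 against 5 on the other days of the path. Its pileup at a region downstream of Tead2 that overlaps Cd37, a leukocyte gene, was 84, while no other time course library had a peak there.

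NanogN70 day 0 was the high value for Yap1, with 17 open regions both among the early libraries and over the 8 days, and for Wwtr1, with 19 over the 8 days. It had 107038 peaks, the most of the 16.

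The remaining flagged counts were a single region away from tied values. Tead3 had 4 open regions on Nanog day 0, both among the early libraries and over the 8 days, against 5 in the rest. Tead2 had 6 on NanogN70 day 12 among the late libraries, Amotl2 had 2 on NanogN70 day 1 among the early ones, and Ankrd1 had 0 on NanogN70 day 10 among the late ones. The Tead2 promoter had a relative pileup of 0.688 on NanogN70 day 1 among the early libraries.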

How the results depend on the processing

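Of 153 values under alternatives for the results of each comparison, 125 stayed the same and 28 moved. A count stayed the same when it was equal to the main count or within a factor of 1.5 of it. The mean daily difference stayed the same when it lay within its SD of 13.1 regions from the main value. With peaks of a score of at least 100, 1 member gene had fewer open regions late in place of 3, 2 regions closed, 1 opened, 2 separated the paths, both in Tead1, and 28 regions were MEF-only. With equal numbers of top-scoring peaks, 1 region closed, 2 separated the paths, 21 were MEF-only, 23 ESC-only and 0 genes separated the paths, while the balance over all coding genes turned, with 5.41% having fewer open regions late and 7.83% more. With a 5 kb window 1 gene had fewer regions late. Without day 3, 0 genes separated the paths, and leaving out each other day gave 0 to 1. Within Nanog alone (2 against 2, no test) 11 regions closed and 5 promoters did not overlap; within NanogN70 20 closed, 12 opened and 6 promoters did not overlap. Scaling to all summits left 1 promoter that separated the paths. Leaving out each early or late library in turn, chosen after seeing the data, gave 5 to 10 closed and 3 to 7 opened regions, the highest without NanogN70 day 1 and without Nanog day 10. Joining summits within 250 bp, also chosen after seeing the data, gave 270 member regions in place of 262. By the rule above it moved none of these counts. No member's called difference changed sign. Requiring a summit and a minimum overlap gave identical values by construction, since a region contains its peaks, and leaving out day 3 cannot alter an early or late value. Of 423 alternatives for single genes and promoters, 393 kept their call, 16 lost it and 14 gained it. A single library per day, unknown depth and the peak caller's threshold limit what absence of a peak shows.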
